A study of Mus musculus with 24 samples.

Results

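The genes described here are 9 lipases and angiopoietin-like genes of mouse liver: Lpl, Lipc, Lipe, Lipa, Mgll, Pnpla2, Pnpla3, Angptl4 and Angptl6. They were picked by symbol, 9 of the 17537 genes with a value in any of the 24 libraries. Testing was limited to the 10697 genes with 1 FPKM (fragments per kilobase of transcript, scaled to library depth) or more in 6 or more libraries. The 9 genes passed, but Pnpla3 only just: it reached 1 FPKM in 4 DEHP plus ethanol libraries, 0 DEHP libraries, 0 ethanol libraries and 2 vehicle libraries. A gene that enters through its high group is bound to differ, so the changes of Pnpla3, and counts that include it, are descriptions.

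Livers came from male C57BL/6 mice dosed by gavage, with 6 RNA-seq libraries in each of 4 groups. One group received di(2-ethylhexyl) phthalate (DEHP) at 2500 mg/kg together with ethanol at 1 g/kg. Another received DEHP alone at 2500 mg/kg and another ethanol alone at 1 g/kg. The last received the vehicle, carboxymethyl cellulose (CMC) at 0.5%. DEHP is used to soften plastics and is a classic peroxisome proliferator of rodent liver, acting through the receptor PPARα. The labels name CMC for the vehicle group alone. Whether the other groups were given it as a carrier, how long dosing lasted and when livers were taken is not given in the sources used here. They describe 12 mice a group for 6 libraries and do not tie a library to an animal, so the p-values measure the spread between libraries, which may be technical in part.

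Triglyceride is broken down at several sites. On the lining of blood vessels, lipoprotein lipase (Lpl) cleaves the triglyceride of circulating lipoproteins, and hepatic lipase (Lipc) acts on remnant particles and HDL in the liver. Angptl4 is a secreted inhibitor of lipoprotein lipase and a known target of the peroxisome proliferator-activated receptors and of glucocorticoids. Inside cells, Pnpla2 (ATGL) removes the first fatty acid from triglyceride, Lipe (hormone-sensitive lipase) works mainly on diacylglycerol, and Mgll (monoacylglycerol lipase) finishes the sequence. Pnpla3 is a lipid droplet protein best known for a human variant tied to fatty liver, and Lipa is the acid lipase of lysosomes. Angptl6 belongs to the angiopoietin-like family by sequence, but, unlike Angptl4, it is not an established lipase inhibitor, so its place among the inhibitors rests on its name. Healthy adult liver makes little lipoprotein lipase.

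The RefSeq promoter table (build GRCm38.p6, from 250 bases before to 50 after a start) held 10 windows for 7 of the 9 genes. It had no entry for Lpl or Angptl4. The windows were searched on both strands for the PPAR direct repeat (AGGTCA, any 1 base, AGGTCA), for the single hexamer AGGTCA contained in it, for the E-box CACGTG and for GTAAACA, a FOXO motif. The 250 bases before a start are shown for the 3 enzymes that act in turn on stored triglyceride, because all 3 were higher with DEHP and with DEHP plus ethanol. Capitals mark a match.
Pnpla2, chr7:141454938-141455187, plus strand: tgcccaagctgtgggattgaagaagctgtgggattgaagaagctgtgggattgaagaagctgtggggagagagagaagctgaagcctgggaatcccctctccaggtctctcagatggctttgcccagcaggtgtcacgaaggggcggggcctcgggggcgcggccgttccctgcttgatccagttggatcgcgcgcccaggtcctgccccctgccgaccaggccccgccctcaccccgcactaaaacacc
Lipe, second listed start, chr7:25390113-25390362, minus strand: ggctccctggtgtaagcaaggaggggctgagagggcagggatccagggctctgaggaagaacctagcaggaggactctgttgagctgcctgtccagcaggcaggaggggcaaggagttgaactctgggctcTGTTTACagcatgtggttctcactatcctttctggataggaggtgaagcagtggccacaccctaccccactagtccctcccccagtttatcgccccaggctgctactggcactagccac
Mgll, first listed start, chr6:88724162-88724411, plus strand: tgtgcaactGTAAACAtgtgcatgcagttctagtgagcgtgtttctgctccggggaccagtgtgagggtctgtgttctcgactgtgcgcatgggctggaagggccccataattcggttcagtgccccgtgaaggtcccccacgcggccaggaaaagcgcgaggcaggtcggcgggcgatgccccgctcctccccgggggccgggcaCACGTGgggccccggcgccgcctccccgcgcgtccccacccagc
The Pnpla2 window held no match. The capitals in the Lipe window spell GTAAACA on the opposite strand and begin 119 bases before the start. The other listed Lipe start, not printed, had CACGTG 155 bases before it. In Mgll, GTAAACA lay 241 and CACGTG 44 bases before the start. Lipc had AGGTCA at 88 and 76 bases before its second start, once on each strand. The direct repeat was in none of the 10 windows. Among all 32851 promoter windows of the table, 0.0396% held the direct repeat, 16.3% AGGTCA, 7.15% CACGTG and 3.65% GTAAACA, so the shorter matches are common. These are matches of letters in short windows and nothing was measured on them.

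Total expected counts were 7324793 to 8016662 per library, and the summed FPKM of 5 hepatocyte markers was 37400 to 66980 in each. Expected counts were fitted with edgeR's quasi-likelihood test in all 24 libraries at once, and a gene was called at a Benjamini-Hochberg adjusted p below 0.05 over the 10697 genes. There were 3 libraries that stood apart by transcripts of other tissues. Summed FPKM of 8 skeletal muscle markers was 4065 in DEHP plus ethanol replicate 6 and 5377 in vehicle replicate 1, against at most 3.64 in any other. DEHP replicate 6 had 497.7 FPKM over 8 acinar pancreas markers, against at most 35.9 elsewhere. The adipocyte genes Adipoq and Plin1 were highest in the same 3 libraries, at 6.86 and 1.62 FPKM in DEHP plus ethanol replicate 6, 4.75 and 1.73 FPKM in DEHP replicate 6, and 1.73 and 0.3 FPKM in vehicle replicate 1. The changes of the 9 genes, and of Abhd5, Abhd6, Angptl8, Apoc3, Cidec, G0s2, Gpihbp1, Plin2 and Plin5, were also computed without these 3 libraries. DEHP replicate 1 was unusual in another way and was kept in that fit. Its summed FPKM of 3 neutrophil markers was 53.92, against at most 9.01 in any other library. Its sum of 7 Kupffer cell and macrophage markers was also the highest, at 211.3 FPKM. In whole-liver RNA, fewer cells of a type and less RNA per cell cannot be told apart.

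**Figure D1:**
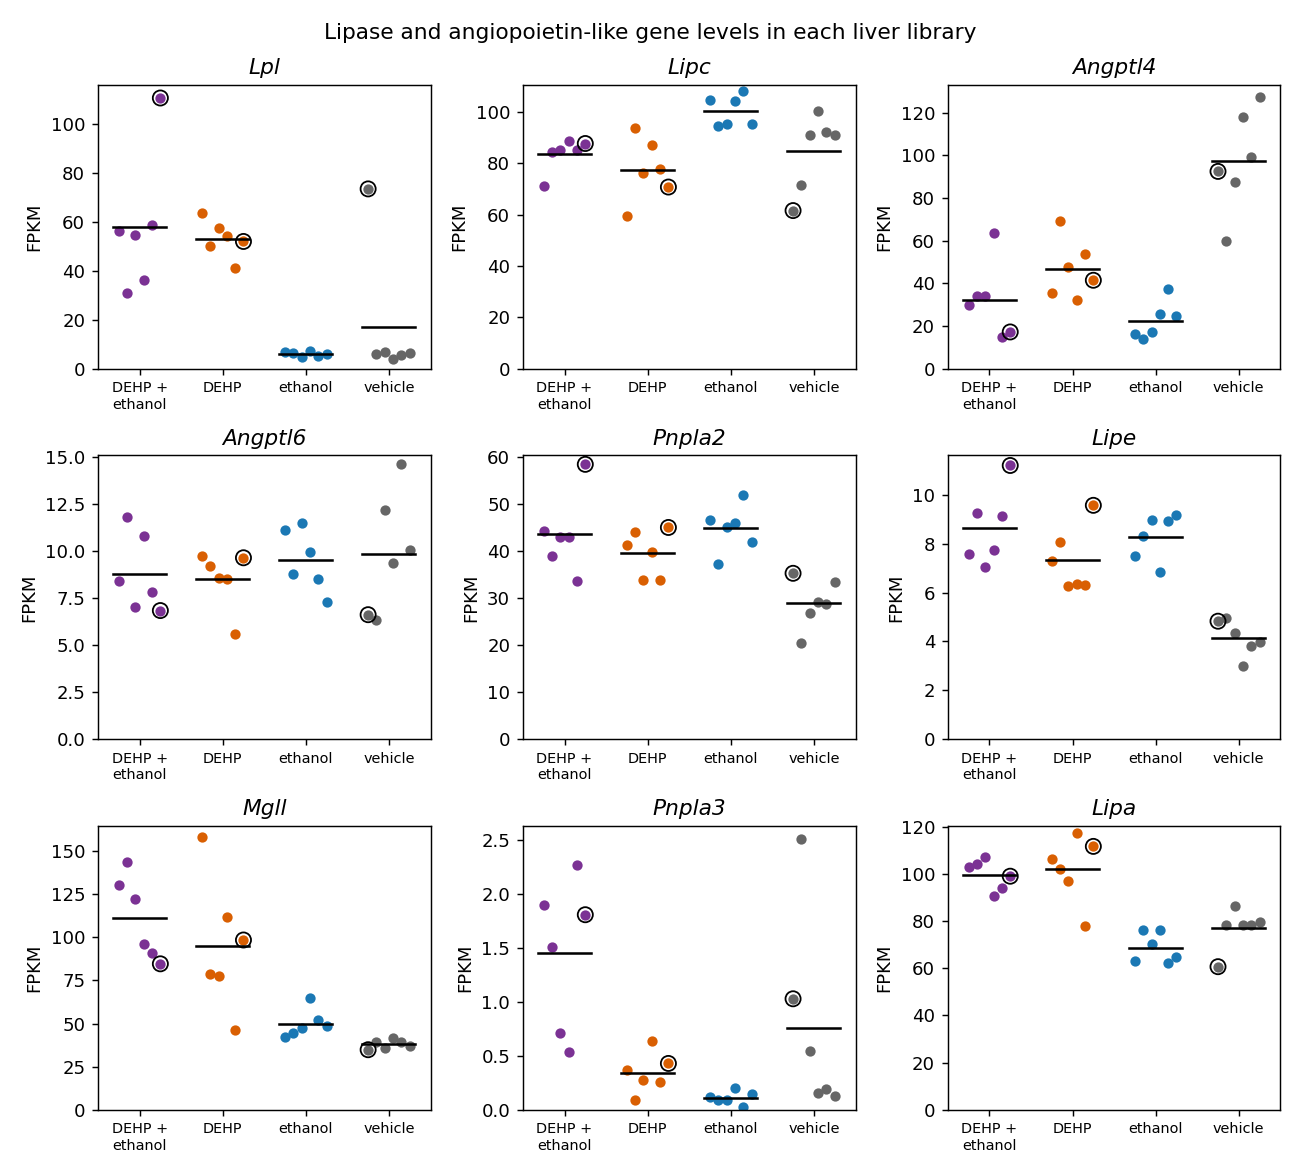
FPKM of the 9 genes in each of the 24 libraries, by group; points are libraries in order of replicate number, horizontal lines are group means, and circles mark the 3 libraries with transcripts of other tissues. Lpl sits at 30.8 to 111 FPKM in the DEHP plus ethanol libraries and at 4.94 to 7.07 FPKM in the ethanol libraries, while 1 vehicle library lies at 73.5 FPKM.

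Lipoprotein lipase was the most strongly raised of the extracellular lipases in livers given DEHP. Lpl (chromosome 8, 68880555 to 68906932, plus strand) had 56.3, 30.8, 54.7, 36.1, 58.8 and 111 FPKM in DEHP plus ethanol replicates 1 to 6. In DEHP replicates 1 to 6 it had 63.7, 50.2, 57.4, 54.5, 41.3 and 52.0 FPKM. The ethanol replicates had 7.02, 6.35, 4.94, 7.07, 5.12 and 5.84 FPKM, and the vehicle replicates 73.5, 6.22, 6.98, 3.87, 5.43 and 6.4 FPKM. So all 12 libraries with DEHP lay above all 6 ethanol libraries, and above 5 of the 6 vehicle libraries. Vehicle replicate 1 was the exception, and it is one of the 2 libraries rich in muscle transcripts.

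Lpl was called higher with DEHP plus ethanol than with vehicle, by a log2 change of 1.76 ± 0.50 (SE, 6 libraries each, adjusted p = 0.00767), and higher with DEHP than with vehicle, by 1.64 ± 0.50 (adjusted p = 0.0173). Vehicle replicate 1 decides the size of both. Without it the log2 changes were 3.27 with DEHP plus ethanol and 3.17 with DEHP, and the 5 remaining vehicle libraries averaged 5.78 ± 1.20 FPKM (SD). Without all 3 unusual libraries they were 3.01 and 3.17. In a fit of the DEHP and vehicle libraries alone, all 12 kept, the DEHP change was no longer called (adjusted p = 0.0689; 1.18e-11 to 0.0689 over the alternatives other than leaving out 1 library). Against ethanol, where that library plays no part in the means, Lpl was higher by 3.17 ± 0.54 with DEHP plus ethanol (adjusted p = 6.85e-05) and by 3.05 ± 0.54 with DEHP (adjusted p = 0.000121). The ethanol change against vehicle, -1.41 ± 0.52 (adjusted p = 0.0434), turned to 0.12 without vehicle replicate 1 (adjusted p = 0.736; 0.0204 to 0.736 over the 24 fits with 1 library left out) and was also lost on leaving out any one of the 6 ethanol libraries (-1.45 to -1.34).

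Some adipocyte marker transcripts were, like Lpl, higher in the groups with DEHP, but Adipoq and Plin1 were absent from most of those libraries. The summed FPKM of 8 such markers was 26.1 to 126 in DEHP plus ethanol libraries, 18.0 to 153 in DEHP libraries, 3.3 to 7.48 in ethanol libraries and 7.78 to 67.4 in vehicle libraries. Fabp4, a fatty acid binding protein that endothelial cells and macrophages also make, was most of that sum in most libraries. The exceptions were DEHP plus ethanol replicate 6, with 61.33 of 126.1 FPKM, and DEHP replicate 6, with 31.19 of 62.74 FPKM. Fabp4 rose with DEHP plus ethanol by a log2 change of 1.34 ± 0.50 (adjusted p = 0.0374) and with DEHP by 1.73 ± 0.50 (adjusted p = 0.0119). It was 43.89 FPKM in vehicle replicate 1, against 7.65 to 11.59 FPKM in the other vehicle libraries. Its changes without that library are not given here. Adipoq and Plin1, which define adipocytes, were each listed at 0 in 5 of 6 DEHP plus ethanol libraries and in 5 of 6 DEHP libraries. Adipoq was at 0 in 5 and Plin1 in 6 of the 6 ethanol libraries, and each was at 0 in 4 of 6 vehicle libraries. Cfd, the adipocyte protease adipsin, was above 0 in every library with DEHP. It was 0.51 to 48.41 FPKM with DEHP plus ethanol and 2.79 to 21.87 FPKM with DEHP. With ethanol it was 0 to 0.34 FPKM and with vehicle 0 to 18.47 FPKM, and 3 of 6 libraries each were at 0. The 18.47 FPKM was vehicle replicate 1, and the other vehicle libraries had at most 0.89 FPKM. Of the 8 markers 3 were tested (Fabp4, Cfd and Cidea), and Adipoq, Plin1, Retn, Lep and Acvr1c were too low. Cfd and Cidea passed the filter through libraries with DEHP, so their changes, and counts that include them, are descriptions. Against vehicle, Fabp4 and the droplet protein Cidea (3.21 ± 0.69 on the log2 scale) were called higher with DEHP plus ethanol, and Fabp4 alone with DEHP. Of all genes tested 19.3% and 14.4% were called higher in these comparisons. Against ethanol the 3 were called higher with DEHP plus ethanol and with DEHP, Cfd by 5.68 ± 1.63 and 5.65 ± 1.64. There 15.1% and 13.7% of all genes tested were called higher. In the 10 libraries with DEHP where Adipoq and Plin1 were at 0, Lpl was 30.8 to 63.7 FPKM, and Cfd was 0.51 to 3.06 FPKM with DEHP plus ethanol and 2.79 to 7.52 FPKM with DEHP. The part of adipocyte RNA in the Lpl changes was not tested.

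**Figure D2:**
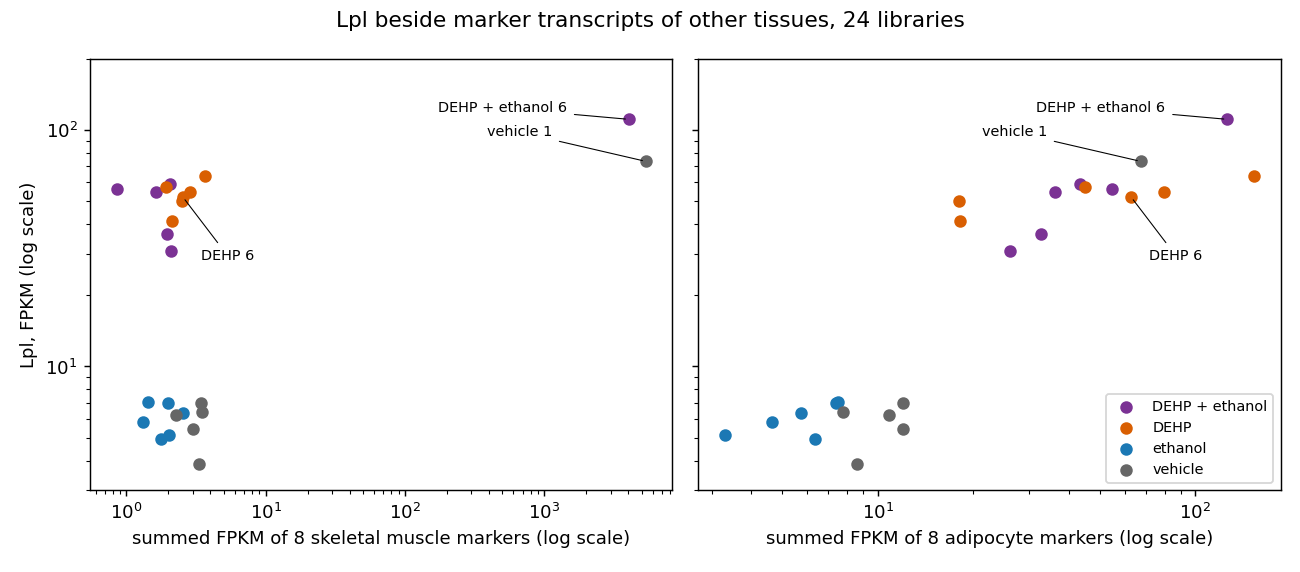
Lpl FPKM against the summed FPKM of 8 skeletal muscle markers (left) and 8 adipocyte markers (right) in each of 24 libraries, all axes on log scales. DEHP plus ethanol replicate 6 and vehicle replicate 1 lie far to the right on the muscle axis at 4065 and 5377 FPKM; the other libraries with DEHP have Lpl at 30.8 to 63.7 FPKM with at most 3.64 FPKM of muscle markers.

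Hepatic lipase took a different course. Lipc (chromosome 9, 70798128 to 70952221, minus strand) ran from 71.2 through a median of 85.2 to 88.7 FPKM with DEHP plus ethanol, and from 59.5 through 76.9 to 93.6 FPKM with DEHP. It ran from 94.4 through 99.8 to 108 FPKM with ethanol and from 61.6 through 91.1 to 100.3 FPKM with vehicle. All 6 ethanol libraries thus lay above every library of the 2 groups with DEHP, and above every vehicle library except replicate 4, at 100.3 FPKM. Lipc fell relative to ethanol by 0.33 ± 0.11 on the log2 scale with DEHP plus ethanol (adjusted p = 0.0201) and by 0.46 ± 0.11 with DEHP (adjusted p = 0.00203). The first of these was lost without the TMM scaling and in the 3 fits of FPKM or TPM, where the log2 change was as small as -0.21; the second was called in every alternative. Against vehicle, the log2 change was -0.02 ± 0.11 with DEHP plus ethanol (adjusted p = 0.896), -0.15 ± 0.11 with DEHP (adjusted p = 0.305) and 0.31 ± 0.11 with ethanol (adjusted p = 0.0298). The ethanol call was lost on leaving out vehicle replicate 1 (0.21), vehicle replicate 2 (0.27), ethanol replicate 1 (0.28) or ethanol replicate 5 (0.28).

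Angptl4, the inhibitor of lipoprotein lipase, was lower in all 3 treated groups. Angptl4 (chromosome 17, 33774900 to 33781575, minus strand) ran from 14.9 through a median of 32.1 to 63.7 FPKM with DEHP plus ethanol and from 32.3 through 44.7 to 69.1 FPKM with DEHP. It ran from 13.8 through 21.0 to 37.2 FPKM with ethanol and from 59.9 through 95.8 to 127 FPKM with vehicle. No ethanol library reached the lowest vehicle library, whereas 1 library of each group with DEHP did. Angptl4 fell by 1.58 ± 0.29 on the log2 scale with DEHP plus ethanol (adjusted p = 0.000141), by 1.08 ± 0.28 with DEHP (adjusted p = 0.00673) and by 2.05 ± 0.30 with ethanol (adjusted p = 2.38e-05). All 3 falls were called in every alternative, the 24 fits with a library left out included.

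The groups therefore ordered as vehicle, DEHP, DEHP plus ethanol and ethanol, from high to low. DEHP was above ethanol by a log2 change of 0.98 ± 0.29 (adjusted p = 0.0144). The neighbours DEHP plus ethanol and DEHP differed by -0.51 ± 0.29 (adjusted p = 0.521) and DEHP plus ethanol and ethanol by 0.47 ± 0.29 (adjusted p = 0.246), and neither difference was called. The ethanol change was smaller on top of DEHP: the interaction, which is the log2 change from DEHP to DEHP plus ethanol less that from vehicle to ethanol, was 1.55 ± 0.41 (adjusted p = 0.0229).

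Set side by side per transcript length, Lpl FPKM exceeded Angptl4 FPKM in 4 of 6 DEHP plus ethanol libraries, 4 of 6 DEHP libraries, 0 of 6 ethanol libraries and 0 of 6 vehicle libraries. In vehicle replicate 1, the vehicle library with the most Lpl, Angptl4 was still the higher, at 92.4 against 73.5 FPKM. Angptl6 (chromosome 9, 20873808 to 20879822, minus strand) gave no such pattern. Its mean was 8.79 ± 2.06 FPKM with DEHP plus ethanol, 8.53 ± 1.52 with DEHP, 9.52 ± 1.62 with ethanol and 9.84 ± 3.20 with vehicle (SD, n = 6 each), and its ranges overlapped in every pair of groups. None of the 7 comparisons called it. The log2 changes against vehicle were -0.17 ± 0.19 with DEHP plus ethanol (adjusted p = 0.533), -0.22 ± 0.19 with DEHP (adjusted p = 0.421) and 0.02 ± 0.19 with ethanol (adjusted p = 0.946).

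The first enzyme of intracellular lipolysis rose in every treated group. Pnpla2 (chromosome 7, 141455188 to 141460743, plus strand) ran from 33.6 through a median of 43.1 to 58.5 FPKM with DEHP plus ethanol, from 33.9 through 40.7 to 45.1 FPKM with DEHP, from 37.4 through 45.7 to 52.1 FPKM with ethanol and from 20.6 through 29.0 to 35.3 FPKM with vehicle. The ethanol libraries all lay above the vehicle libraries, and the groups with DEHP overlapped vehicle at 33.6 to 35.3 FPKM. That overlap came from vehicle replicate 1 alone, at 35.34 FPKM. The other vehicle libraries had at most 33.56 FPKM, against 33.62 FPKM in the lowest library with DEHP. Pnpla2 was highest within its group in vehicle replicate 1, DEHP plus ethanol replicate 6 and DEHP replicate 6. These libraries also had the highest Adipoq. The log2 change was 0.58 ± 0.12 with DEHP plus ethanol (adjusted p = 0.000651), 0.44 ± 0.12 with DEHP (adjusted p = 0.0103) and 0.70 ± 0.12 with ethanol (adjusted p = 0.000229), each called in every alternative.

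Lipe rose by more. Lipe (chromosome 7, 25379527 to 25398486, minus strand) ran from 7.03 through a median of 8.44 to 11.2 FPKM with DEHP plus ethanol, from 6.27 through 6.83 to 9.57 FPKM with DEHP, from 6.83 through 8.62 to 9.18 FPKM with ethanol and from 2.98 through 4.15 to 4.97 FPKM with vehicle. The lowest treated library was above the highest vehicle library, and the 3 treated groups overlapped each other. The log2 change was 1.03 ± 0.13 with DEHP plus ethanol (adjusted p = 1.14e-06), 0.78 ± 0.13 with DEHP (adjusted p = 8.38e-05) and 1.06 ± 0.13 with ethanol (adjusted p = 3.28e-06). Lipe was highest within its group in DEHP plus ethanol replicate 6 and DEHP replicate 6, both of them libraries with Adipoq; without the 3 unusual libraries every one of these rises was still called.

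Monoacylglycerol lipase followed DEHP instead. Mgll (chromosome 6, 88724412 to 88828360, plus strand) ran from 84.7 through a median of 109.3 to 144 FPKM with DEHP plus ethanol, from 46.3 through 88.7 to 158 FPKM with DEHP, from 42.1 through 47.8 to 64.8 FPKM with ethanol and from 34.8 through 38.2 to 41.9 FPKM with vehicle. Every library with DEHP exceeded every vehicle library, and every DEHP plus ethanol library exceeded every ethanol library. Mgll rose by a log2 change of 1.55 ± 0.20 with DEHP plus ethanol (adjusted p = 1.14e-06) and by 1.30 ± 0.19 with DEHP (adjusted p = 1.99e-05). It was also higher than with ethanol, by 1.09 ± 0.19 with DEHP plus ethanol (adjusted p = 0.000108) and by 0.85 ± 0.19 with DEHP (adjusted p = 0.00183). With ethanol the change against vehicle was 0.45 ± 0.19 (adjusted p = 0.0759), which missed the threshold although the ranges did not overlap. That change was called in the fit of the ethanol and vehicle libraries alone (adjusted p = 0.00319; 0.00319 to 0.309 over the alternatives other than leaving out 1 library). It was called too without DEHP replicate 1 (0.45) or DEHP replicate 5 (0.46).

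Pnpla3 was the weakest of the 9 in every group, and its counts were small, from 18 to 78 expected counts per library with DEHP plus ethanol, 3 to 21 with DEHP, 1 to 7 with ethanol and 4 to 81 with vehicle. Pnpla3 (chromosome 15, 84167776 to 84189521, plus strand) ran from 0.54 through a median of 1.66 to 2.27 FPKM with DEHP plus ethanol, from 0.09 through 0.33 to 0.64 FPKM with DEHP, from 0.03 through 0.11 to 0.2 FPKM with ethanol and from 0.13 through 0.37 to 2.51 FPKM with vehicle. The DEHP plus ethanol libraries all exceeded the ethanol libraries, and the vehicle libraries spanned nearly the whole range. As a description, since the filter let it in through its high libraries, its fitted log2 change was -2.62 ± 0.68 with ethanol against vehicle and 3.54 ± 0.65 with DEHP plus ethanol against ethanol. Both passed the threshold, the first not with limma on log2(FPKM + 1) or log2(TPM + 1). With DEHP plus ethanol against vehicle the log2 change was 0.92 ± 0.50 (adjusted p = 0.155); without vehicle replicate 2, at 2.51 FPKM, it was 1.83 and called (adjusted p = 0.00307; 0.00307 to 0.282 over the 24 fits with 1 library left out). It was called too with limma on log2(FPKM + 1), at 0.56 (adjusted p = 0.0491), and on log2(FPKM + 0.1), at 1.30 (adjusted p = 0.0438; up to 0.256 over the other alternatives). The change with DEHP against vehicle was -1.16 ± 0.57 (adjusted p = 0.135), and -0.26 without vehicle replicate 2.

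Lysosomal acid lipase rose modestly with DEHP. Lipa (chromosome 19, 34492316 to 34527474, minus strand) ran from 90.6 through a median of 101 to 107 FPKM with DEHP plus ethanol, from 77.9 through 104 to 117 FPKM with DEHP, from 62.1 through 67.5 to 76.1 FPKM with ethanol and from 60.7 through 78.5 to 86.5 FPKM with vehicle. All 6 DEHP plus ethanol libraries and 5 of 6 DEHP libraries exceeded every vehicle library. The log2 change against vehicle was 0.37 ± 0.09 with DEHP plus ethanol (adjusted p = 0.0027), 0.39 ± 0.09 with DEHP (adjusted p = 0.00277) and -0.10 ± 0.09 with ethanol (adjusted p = 0.44). Against ethanol it was 0.46 ± 0.09 with DEHP plus ethanol (adjusted p = 0.000369) and 0.48 ± 0.09 with DEHP (adjusted p = 0.000271).

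**Figure D3:**
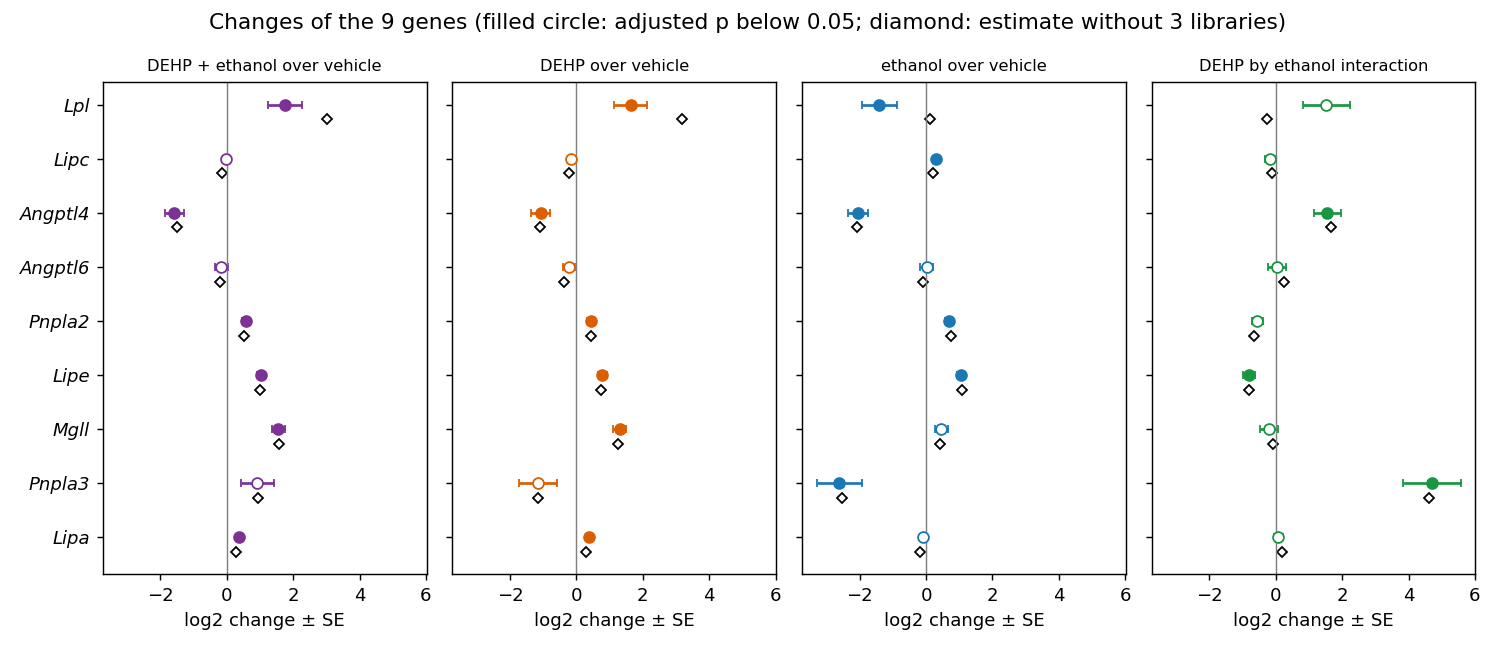
Log2 change of the 9 genes with DEHP plus ethanol, DEHP and ethanol, each over vehicle, and the DEHP by ethanol interaction; circles and bars are edgeR estimates ± SE from 6 libraries a group, filled where the adjusted p is below 0.05, and diamonds are estimates without 3 libraries. The Lpl diamonds lie at 3.01, 3.17 and 0.11 against circles at 1.76, 1.64 and -1.41; the Angptl4, Lipe and Pnpla2 pairs lie close together.

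Counted together, 5 of the 9 genes rose (Lpl, Lipe, Lipa, Mgll and Pnpla2) and 1 fell (Angptl4) with DEHP plus ethanol against vehicle, where 36.8% of all genes tested were called, 19.3% higher and 17.4% lower. The same 6 genes were called in the same directions with DEHP against vehicle, where 26.0% of genes were called, 14.4% higher and 11.6% lower. Both comparisons use the same vehicle libraries. With ethanol against vehicle 3 rose (Lipc, Lipe and Pnpla2) and 3 fell (Lpl, Pnpla3 and Angptl4), with 28.8% of genes called, 14.2% higher and 14.5% lower. The median log2 change of the 9 was 0.58 with DEHP plus ethanol, 0.39 with DEHP and 0.02 with ethanol, while the medians of all genes tested were -0.01, -0.02 and -0.01. The 9 genes were chosen with earlier results of these data known and include Pnpla3, so these counts and medians are descriptions.

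Between the treatments, 4 genes were higher (Lpl, Lipa, Mgll and Pnpla3) and 1 lower (Lipc) with DEHP plus ethanol than with ethanol, in a comparison that called 27.8% of genes, 15.1% higher and 12.7% lower. With DEHP against ethanol 4 were higher (Lpl, Lipa, Mgll and Angptl4) and 1 lower (Lipc), with 25.7% of genes called, 13.7% higher and 12.0% lower. Between DEHP plus ethanol and DEHP, edgeR called 0 of the 9, with 0.122% of all genes called, 0.0467% higher and 0.0748% lower. DESeq2 and the limma fits also called 0 of the 9. At an unadjusted p below 0.05 there was 1, Pnpla3, with a log2 change of 2.09 ± 0.55 (adjusted p = 0.165). Lipe there was 0.25 ± 0.13 (adjusted p = 0.471), Mgll 0.25 ± 0.19 (adjusted p = 0.65) and Lpl 0.12 ± 0.48 (adjusted p = 0.95).

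The interaction was called for 3 of the 9 genes, with 6.41% of all genes called, 3.32% positive and 3.09% negative. For Lipe it was -0.80 ± 0.18 (adjusted p = 0.00883), since ethanol moved it by 1.06 from vehicle and by 0.25 from DEHP. For Angptl4 it was positive, as given above. For Pnpla3 the fitted value was 4.70 ± 0.87, from a change of -2.62 without DEHP and 2.09 with it, on the small counts described; it is a description, for the same reason as above. Lipe and Angptl4 were called in every alternative. For Pnpla2 the interaction was -0.56 ± 0.17 and stayed just short of the threshold (adjusted p = 0.0509). DESeq2 called it, as did the fits without vehicle replicate 1 or 6, DEHP plus ethanol replicate 6, DEHP replicate 3, 4 or 5, or ethanol replicate 2 (-0.64 to -0.57). The Lpl value, 1.52 ± 0.71 (adjusted p = 0.19), became -0.01 without vehicle replicate 1.

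For each gene whose highest group mean was at least 2 times its lowest, the most alike of the other tested genes were sought, by the mean absolute difference in log2(FPKM + 1), centred on the vehicle mean, over the 24 libraries. The ratio of means was below 2 for Lipc, Lipa, Pnpla2 and Angptl6. Closest to Lpl were Slc27a1, a fatty acid transport protein, at 0.50, and Cd36, a fatty acid translocase, at 0.51, against a mean absolute value of 1.59 for Lpl itself. Mgll lay closest to Acaa1a, the peroxisomal thiolase, at 0.17, and to Acot8, a peroxisomal acyl-CoA thioesterase, at 0.19, against 0.79 for Mgll itself. Lipe lay closest to Sphk2, a sphingosine kinase, at 0.22, and to Dact2, also at 0.22, against 0.65. Angptl4 lay closest to Tsc22d3 at 0.41 and Trp53inp1 at 0.44, against 1.28. For Pnpla3 the nearest were Morf4l2 at 0.25 and Col15a1 at 0.26, but its own mean absolute value was only 0.47.

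Of 13 other genes for the folding, transport and control of lipoprotein lipase, all tested, 2 rose and 2 fell with DEHP plus ethanol against vehicle, 2 rose and 1 fell with DEHP, and 3 rose and 0 fell with ethanol. Of all genes tested 36.8%, 26.0% and 28.8% were called in these comparisons, so nothing about the list is read from its counts. Lmf1, the maturation factor that lipoprotein lipase needs to fold, rose in each, by a log2 change of 0.35 ± 0.10 with DEHP plus ethanol (adjusted p = 0.00755), 0.29 ± 0.10 with DEHP (adjusted p = 0.0325) and 0.47 ± 0.10 with ethanol (adjusted p = 0.00151). Apoc3, an apolipoprotein that restrains lipoprotein lipase, averaged 2887 ± 386 FPKM with DEHP plus ethanol, 2524 ± 170 with DEHP, 4567 ± 437 with ethanol and 3656 ± 406 with vehicle (SD, n = 6 each). It fell by 0.36 ± 0.10 on the log2 scale with DEHP plus ethanol (adjusted p = 0.00575) and by 0.56 ± 0.10 with DEHP (adjusted p = 0.000185), and rose by 0.37 ± 0.10 with ethanol (adjusted p = 0.00754). The ethanol call was lost with limma on log2(TPM + 1), at 0.22.

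Angptl8, another circulating regulator of lipoprotein lipase, fell with DEHP plus ethanol against vehicle by 1.00 ± 0.34 on the log2 scale (adjusted p = 0.0223). That call was lost without vehicle replicate 6 (-0.86) and without DEHP plus ethanol replicate 2 (-0.88). Its fall against ethanol, by 0.94 ± 0.34 (adjusted p = 0.0374), was lost in most alternatives. No comparison called Gpihbp1, the endothelial protein that carries lipoprotein lipase to the vessel surface, at 18.2 ± 4.53 FPKM with DEHP plus ethanol, 16.2 ± 4.74 with DEHP, 13.0 ± 2.19 with ethanol and 17.4 ± 5.43 with vehicle.

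Of 24 genes for intracellular lipolysis and its control, 20 were tested; Cel, Dagla, Pnpla1 and Pnpla5 were too low. With DEHP plus ethanol 5 rose and 1 fell, with DEHP 3 rose and 2 fell, and with ethanol 5 rose and 3 fell, each against vehicle, where 36.8%, 26.0% and 28.8% of all genes were called. Nothing about the list is read from these counts either. Abhd6, another monoacylglycerol lipase, followed DEHP as Mgll did: it averaged 47.6 ± 8.08 FPKM with DEHP plus ethanol, 42.5 ± 8.64 with DEHP, 18.8 ± 2.37 with ethanol and 20.6 ± 3.02 with vehicle. Its log2 change against vehicle was 1.24 ± 0.14 with DEHP plus ethanol (adjusted p = 3.57e-07), 1.06 ± 0.14 with DEHP (adjusted p = 5.19e-06) and -0.06 ± 0.15 with ethanol (adjusted p = 0.799). Cidec, a lipid droplet fusion protein, averaged 4.09 ± 1.52 FPKM with DEHP plus ethanol, 2.44 ± 1.00 with DEHP, 0.743 ± 0.453 with ethanol and 1.29 ± 0.614 with vehicle. It rose with DEHP plus ethanol against vehicle by 1.20 ± 0.30 (adjusted p = 0.00276), and against ethanol by 1.71 ± 0.31 with DEHP plus ethanol (adjusted p = 0.000151) and by 1.06 ± 0.32 with DEHP (adjusted p = 0.0148).

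The partners that switch Pnpla2 on and off did not pass the test in any of the 7 comparisons. Abhd5, its activator, changed against vehicle by 0.13 ± 0.16 on the log2 scale with DEHP plus ethanol (adjusted p = 0.56), -0.10 ± 0.16 with DEHP and -0.26 ± 0.16 with ethanol; the first was 0.34 and called without vehicle replicate 1. G0s2, its inhibitor, gave -0.77 ± 0.34 with DEHP plus ethanol (adjusted p = 0.074), -0.29 ± 0.33 with DEHP and -0.17 ± 0.33 with ethanol. The first was called without vehicle replicate 3 (-0.95), without DEHP plus ethanol replicate 4 (-1.07) or with the replicate number as a block (-0.83, adjusted p = 0.0435; up to 0.1 over the alternatives other than leaving out 1 library). Between DEHP plus ethanol and DEHP, 0 of the 13 and 0 of the 20 genes were called by edgeR, where 0.122% of all genes tested were. In the interaction, where 6.41% of all genes tested were called, 0 of the 13 and 2 of the 20 were. Nothing about the lists is read from these counts. The 2 were the droplet proteins Plin2 (0.84 ± 0.14, adjusted p = 0.000649) and Plin5 (0.70 ± 0.20, adjusted p = 0.0312), which were chosen for mention after their values were seen. The Plin5 call was lost without DEHP replicate 3 or 6 or ethanol replicate 3 or 6 (0.64 to 0.71).

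**Figure D4:**
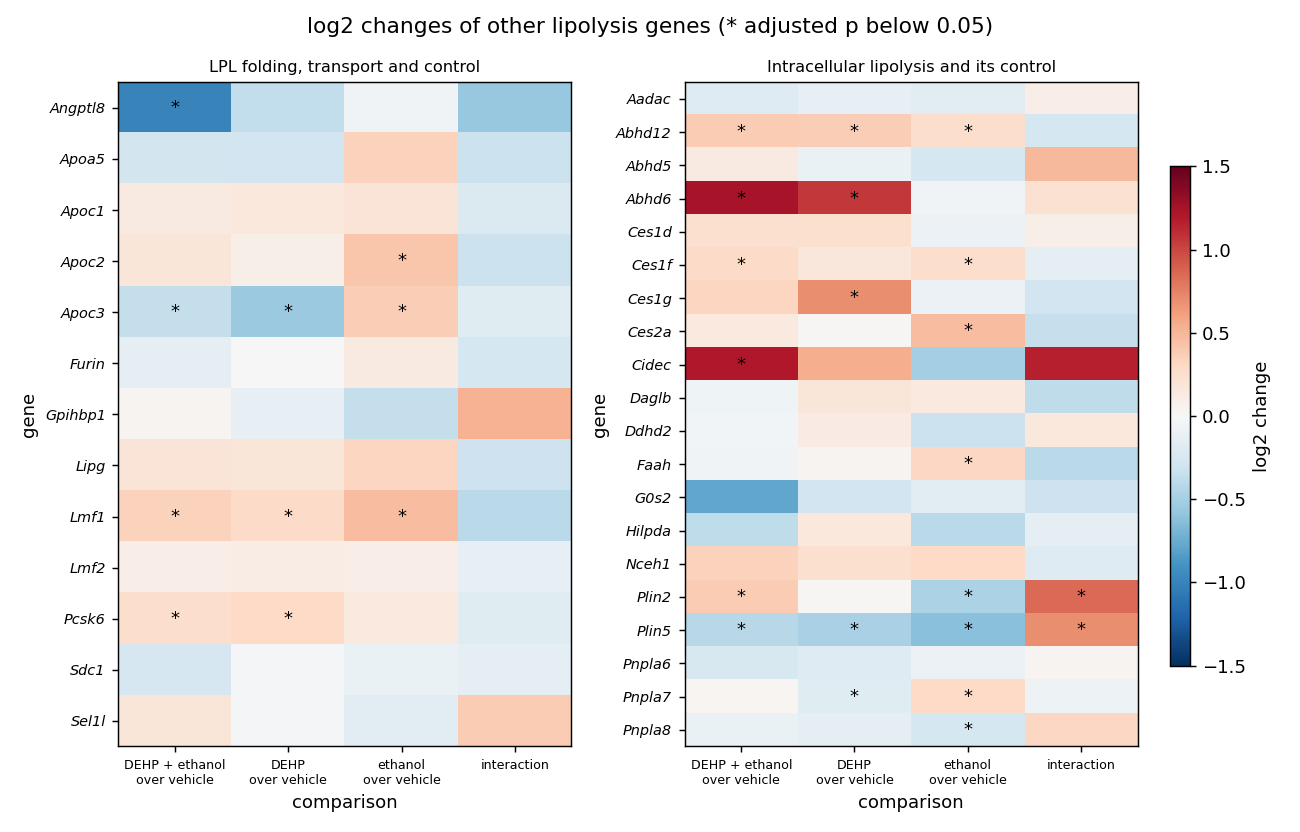
Log2 changes (colour, from -1.5 to 1.5) of the 13 genes for control of lipoprotein lipase and the 20 tested genes for intracellular lipolysis with DEHP plus ethanol, DEHP and ethanol, each over vehicle, and in the interaction; stars mark an adjusted p below 0.05. Abhd6 is dark red at 1.24 and 1.06 in the columns with DEHP and pale at -0.06 with ethanol, and Apoc3 turns from blue to red between those columns.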

How the data were processed

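Mouse liver RNA was sequenced as 24 libraries, 6 in each of 4 groups, grouped and numbered by their titles. The authors deposited, per the file headers, for each library a table of expected counts and FPKM; a gene with no line was taken as 0. The deposited expected counts are estimated reads per gene, not normalized, and 94.5% to 95.3% of them were whole. The submitters' processing notes name Cuffdiff and the builds mm10 and GRCm38. No source used here gives the aligner, the counting program or whether it used strand, so reads of Lipc, Lipe, Mgll, Pnpla3 and Angptl6 and of genes annotated across them cannot be told apart. No 2 libraries of a group agreed within sampling noise (lowest chi-square per degree of freedom 6.31).

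Rounded expected counts were tested by the quasi-likelihood F test of edgeR 4.0.16, under R 4.3.3, with TMM factors, one model of the 4 groups, 20 residual degrees of freedom, and Benjamini-Hochberg adjustment over 10697 genes. The SE is the unshrunken log2 change divided by the square root of F. The depth of 7324793 to 8016662 expected counts limits weak genes such as Pnpla3. On simulated counts of the DEHP and vehicle comparison with 10697 genes, 38.8% of 1.5-fold, 92.5% of 2-fold and 100% of 4-fold changes were recovered, and 4.35% of calls were unchanged genes. The simulation gave all genes one spread and held no unusual libraries. It changed only 67, 67 and 66 genes by these folds, none of them as weak as Pnpla3. Its rates therefore need not hold for the real comparison, and least for Pnpla3 and Lpl.

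All 9 genes are named in every comparison. Of the 37 genes in the 2 other lists, those with a called log2 change of at least 1 and Abhd5, G0s2, Gpihbp1, Angptl8 and Apoc3 are named by rule; Lmf1, Plin2 and Plin5 were added once values had been seen. The 9 genes and all lists were chosen with earlier results of these data known. Alternatives were no TMM, DESeq2 1.42.0, no filter, limma 3.58.1 on log2(FPKM + 1), log2(FPKM + 0.1) and log2(TPM + 1), a replicate block, only the groups compared, and leaving out libraries. The alternatives for the 2 other lists were added after the data were seen. Coordinates and promoters are from RefSeq, GRCm38.p6, in which all 46 identifiers were placed. Protein sequences were not used here, and 1 gene of the wider lists is not reported here.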

Additional observations from a re-analysis of the deposited data

Results flagged for a closer look

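Of 72 groups of 6 libraries examined, 10 held a library whose gap to its nearest neighbour passed Dixon's 95% critical value, as a share of the group's range. Chance flags about 1 group in 20. Vehicle replicate 1, rich in muscle transcripts, was such a library for 3 genes, with 73.5 FPKM for Lpl (others 3.87 to 6.98), 60.7 for Lipa (others 78.4 to 86.5) and 17.2 for Abhd5 (others 6.43 to 10.2). DEHP plus ethanol replicate 6, the other such library, stood out for Lpl at 111 FPKM (others 30.8 to 58.8). The part of the muscle transcripts in these values was not tested. DEHP replicate 5 stood out for Angptl6 at 5.61 FPKM (others 8.51 to 9.7) and for Abhd5 at 12.3 FPKM (others 8.07 to 9.08). The remaining libraries that stood apart were Lipc in DEHP plus ethanol replicate 1 at 71.2 FPKM, Plin5 in DEHP plus ethanol replicate 2 at 37.3 FPKM, Plin5 in ethanol replicate 6 at 22.01 FPKM and G0s2 in ethanol replicate 4 at 108 FPKM.

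The ethanol change differed with and without DEHP, by the interaction test in edgeR, for Lipe (-0.80 ± 0.18, adjusted p = 0.00883), Angptl4 (1.55 ± 0.41, adjusted p = 0.0229), Plin2 (0.84 ± 0.14, adjusted p = 0.000649) and Plin5 (0.70 ± 0.20, adjusted p = 0.0312). Pnpla3 gave 4.70 ± 0.87, a description, since it passed the filter on low values through its high libraries.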

How the results depend on the processing

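Of 63 pairs of a gene and a comparison, 31 were called, and 26 of these calls held under every alternative; the other 5 are the Lpl changes with DEHP and with ethanol against vehicle, the Lipc changes of ethanol against vehicle and of DEHP plus ethanol against ethanol, and the Pnpla3 change with ethanol. With ethanol against vehicle 6 of the 9 genes were called, and 3 with limma on log2(FPKM + 1). Between DEHP plus ethanol and DEHP 13 genes of the whole table were called, against 44 with DESeq2, 1 with no filter, 7 and 6 with limma on log2(FPKM + 1) and log2(FPKM + 0.1), 6 in the fit of those groups alone, 8 without the 3 unusual libraries, and 0 to 18 with 1 library left out; 0 of the 9 genes were called in any of these. The interaction called 686 genes, and 365 without the 3 libraries; the cause was not tested. Scaling moved the split of calls: with ethanol against vehicle 49.5% of calls were higher, against 31.1% without TMM, 38.0% and 38.3% with limma on FPKM and 14.8% on TPM, where the median of all genes shifted by -0.14. The shares for DEHP plus ethanol against ethanol were 54.4%, 70.6%, 69.1%, 69.6% and 78.7%, and for DEHP against ethanol 53.4%, 71.9%, 69.6%, 69.9% and 84.7%, in the same order of fits; on TPM these medians shifted by 0.11 and 0.15. For the interaction the share was 51.7%, 68.8% without TMM and 78.5% on TPM. On TPM, Lipa was called lower with ethanol than with vehicle (-0.26, against a median of -0.15).

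Signs turned mostly in changes near 0. Without the 3 libraries, Lpl gave 0.11 with ethanol against vehicle, -0.16 between DEHP plus ethanol and DEHP and -0.27 in the interaction, Lipa 0.013 between DEHP plus ethanol and DEHP, Gpihbp1 -0.02 with DEHP plus ethanol and Abhd5 0.14 with DEHP. Angptl6 with ethanol was -0.092 there, -0.062 without TMM, -0.006 and -0.002 with limma on FPKM and -0.10 on TPM. Lipe between DEHP plus ethanol and ethanol was 0.067 without TMM, 0.049 and 0.053 in the fits of FPKM and 0.10 on TPM. Lipc with DEHP plus ethanol was 0.001 in both fits of FPKM. On TPM, Lpl was -0.029 and Angptl6 -0.005 between DEHP plus ethanol and DEHP. With 1 library left out, the ranges of results that changed sign were -0.20 to 0.12 for Abhd5 with DEHP, -1.61 to 0.12 for Lpl with ethanol, -0.012 to 1.73 for Lpl in the interaction, -0.16 to 0.24 for Lpl between DEHP plus ethanol and DEHP, -0.088 to 0.17 for Angptl6 with ethanol, -0.11 to 0.13 for Angptl6 in the interaction, -0.051 to 0.12 for Angptl6 between DEHP plus ethanol and DEHP, -0.037 to 0.18 and -0.29 to 0.017 for Gpihbp1 with DEHP plus ethanol and with DEHP, -0.054 to 0.058 for Plin2 with DEHP, -0.35 to 0.12 for Angptl8 with ethanol, -0.13 to 0.039 for Lipc with DEHP plus ethanol, -0.43 to 0.078 for G0s2 with ethanol, -0.089 to 0.021 for Lipe between DEHP plus ethanol and ethanol, -0.35 to 0.006 for Mgll in the interaction, and -0.091 to 0.008 for Lipa between DEHP plus ethanol and DEHP. Lipe was called lower with DEHP than with ethanol without DEHP replicate 6 (-0.36), ethanol replicate 4 (-0.34) or the 3 libraries together (-0.36, adjusted p = 0.0318; up to 0.632 over the other alternatives).

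Replicate numbers are shared by the groups but did not pair the libraries: over 36 pairs of one number the correlation of deviations was -0.21 to 0.21 with a median of -0.01, 6 were over 0.1, and 3 of 24 libraries correlated best with their own number. With a replicate block, 5 genes of the table were called between DEHP plus ethanol and DEHP, the Lpl change with ethanol against vehicle (-0.74) and the Angptl8 change between DEHP plus ethanol and ethanol (-0.82) were not called, and the Pnpla2 interaction and the G0s2 change with DEHP plus ethanol against vehicle (-0.83) were.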

Other observations

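Markers of the other cells of liver gave these values, whose part in the results was not tested. Of 7 Kupffer cell and macrophage markers, edgeR called 0 in each of the 7 comparisons, which called 0.122% to 36.8% of all genes tested. The summed FPKM of these markers was 62.9 to 100 with DEHP plus ethanol, 78 to 211 with DEHP, 54.4 to 106 with ethanol and 57.5 to 170 with vehicle. Of 6 sinusoidal endothelial markers, 2 fell with DEHP plus ethanol, 2 with DEHP and 3 with ethanol, each against vehicle, where 17.4%, 11.6% and 14.5% of all genes tested were called lower. Their summed FPKM was 49.1 to 78.7 with DEHP plus ethanol, 51.9 to 84 with DEHP, 38.9 to 53.6 with ethanol and 48.9 to 104.3 with vehicle. Bmp2, an endothelial signal for iron control, fell by 0.60 ± 0.20 on the log2 scale with DEHP plus ethanol (adjusted p = 0.0198), by 0.54 ± 0.20 with DEHP (adjusted p = 0.0454) and by 1.11 ± 0.21 with ethanol (adjusted p = 0.000401). Ehd3 changed by -0.44 ± 0.15 with DEHP plus ethanol (adjusted p = 0.023) and by -0.40 ± 0.15 with DEHP (adjusted p = 0.0479). With ethanol its change was -0.69 ± 0.15 (adjusted p = 0.00173). Kdr, the VEGF receptor, fell with ethanol by 0.83 ± 0.23 (adjusted p = 0.0103). Stab2, Clec4g and Lyve1 were called in none of these comparisons with vehicle. Of 5 stellate cell markers, Dcn fell with DEHP by 0.51 ± 0.10 and with ethanol by 0.47 ± 0.10, and with DEHP plus ethanol 0 were called. Of 3 neutrophil markers, Retnlg was called higher with DEHP plus ethanol and with DEHP, with an SE above 1 on the log2 scale. S100a8 and S100a9 were called in neither. Which libraries carried Retnlg past the filter on low values was not examined, so its calls are descriptions. The summed FPKM of the 3 was 53.92 in DEHP replicate 1 and at most 9.01 in any other library. Of 5 hepatocyte markers, 4 fell with DEHP plus ethanol and 4 with DEHP, Alb by 0.67 ± 0.11 and 0.64 ± 0.11, while 1 rose and 1 fell with ethanol. Against vehicle, 19.3%, 14.4% and 14.2% of all genes tested were called higher with DEHP plus ethanol, DEHP and ethanol. The shares called lower are those given for the endothelial markers. Only 1 of 8 muscle and 1 of 8 pancreas markers passed the filter on low values.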
